A study of Mus musculus with 7 samples.

Results

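Genes that mark the endothelium of the blood-brain barrier, 10 in all, were followed across the cerebral cortex of mice at postnatal day 7. They were taken from the deposited table by their symbols. All 10 were present, each on 1 of the 56941 rows, and all 10 passed the minimum of 1 TPM on average (TPM, transcripts per 1000000). The groups were 4 wild-type (WT) samples and 3 with the P213L change in Hnrnph2, a gene for an RNA-binding protein of the hnRNP H/F family. Both groups were fresh cortex, with no treatment named. Strain, sex and zygosity are not given in the labels used here, nor is it said whether each sample was an animal of its own. The p-values therefore reflect only sample-to-sample spread, which may be technical.

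The endothelial cells of brain capillaries form a barrier between blood and neural tissue. Tight and adherens junctions close the gaps between the cells, vesicle traffic across them is held low, and carriers in the membrane bring in nutrients while efflux pumps send foreign compounds back. Growth factor receptors of the VEGF and angiopoietin families guide the growth and stability of the vessels, which are still being extended in the cortex of the young mouse. The members fall into those roles. Cldn5, Cdh5 and Pecam1 belong to the junctions, Flt1, Kdr and Tek are receptors, and Slc2a1, Mfsd2a, Slco1a4 and Abcb1a act in transport.

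Promoters are shown for the most abundant member, Cldn5, and for the members with an entry whose WT and P213L values did not overlap. RefSeq (GRCm38.p6) had an entry for 8 of the 10 genes. Each run is the 250 bases before the RefSeq start, 5′ to 3′ on the strand of the gene. Capitals mark the letters AGGAAG, the core bound by ETS factors, and CTTTGA, bound by the TCF/LEF factors of the Wnt pathway, on either strand.
Cldn5, chr16:18776597-18776846, plus strand: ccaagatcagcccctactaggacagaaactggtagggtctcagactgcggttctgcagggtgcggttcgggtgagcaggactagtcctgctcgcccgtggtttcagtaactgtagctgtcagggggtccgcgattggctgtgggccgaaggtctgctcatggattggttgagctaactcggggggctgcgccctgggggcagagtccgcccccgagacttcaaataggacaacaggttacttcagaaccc
Tek, chr4:94739039-94739288, plus strand: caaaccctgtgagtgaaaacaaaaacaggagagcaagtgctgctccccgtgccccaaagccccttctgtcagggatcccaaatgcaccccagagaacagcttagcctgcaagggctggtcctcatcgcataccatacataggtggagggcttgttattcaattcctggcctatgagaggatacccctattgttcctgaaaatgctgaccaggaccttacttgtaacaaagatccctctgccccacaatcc
Mfsd2a, chr4:122961189-122961438, minus strand: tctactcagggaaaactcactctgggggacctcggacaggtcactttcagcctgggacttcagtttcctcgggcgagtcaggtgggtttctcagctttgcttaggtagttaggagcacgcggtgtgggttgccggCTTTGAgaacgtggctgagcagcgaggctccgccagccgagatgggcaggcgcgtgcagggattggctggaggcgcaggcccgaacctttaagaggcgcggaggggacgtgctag
Slco1a4, chr6:141856221-141856470, minus strand: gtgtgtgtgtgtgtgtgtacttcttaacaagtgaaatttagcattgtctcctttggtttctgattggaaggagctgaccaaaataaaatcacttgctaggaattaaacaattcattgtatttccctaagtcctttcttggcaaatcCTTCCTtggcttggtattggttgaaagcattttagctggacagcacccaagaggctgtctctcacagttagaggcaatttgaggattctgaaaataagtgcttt
The Mfsd2a window held 1 TCF/LEF match and the Slco1a4 window 1 ETS match. Those of Cldn5 and Tek held neither. Over the 8 members with an entry, 3 windows held AGGAAG (Abcb1a, Flt1 and Slco1a4) and 2 held CTTTGA (Abcb1a and Mfsd2a). Of all 32851 RefSeq windows of that length, 29.5% held AGGAAG and 13.8% held CTTTGA. The RefSeq window of Abcb1a (chr5:8566841-8567090) lies far upstream of the GENCODE vM21 gene start at 8660077, so its matches belong to another annotated start. A match describes letters only.

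The libraries held an estimated 57.2 to 79.4 M counted units (M, 1000000), as read from the low values of the table. WT replicate 3 had the lowest depth and stood apart from the other 6, with correlations of 0.943 to 0.949 across the tested genes. The estimated units behind a member ran from 509.5 (Slco1a4) to 8544 (Cldn5) per library. For Slco1a4 counting alone then gives a coefficient of variation (CV) of 3.15 to 4.43%, and for Cldn5 of 1.08 to 1.41%, for counting error only. Hnrnph2 averaged 87.0 TPM over the WT and 82.0 TPM over the P213L samples, and its level does not check a variant of the protein. Neuronal markers summed to 6682 to 7336 TPM, mostly from Tubb3 and Stmn2, so the samples held neuronal RNA. The brain region was not checked by this sum.

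No general loss or gain of the endothelial genes was seen in P213L cortex. Of the 10, 6 had a positive and 4 a negative log2 fold change (P213L over WT, on log2 of TPM + 0.5), where 63.4% of all 17582 tested genes were positive. Their median was 0.01, beside 0.07 over all tested genes. At the threshold of 0.05 on the adjusted p of limma (Benjamini-Hochberg, two-sided), 0 tested genes and so 0 members were called (0.0%). At an unadjusted p under 0.05 there were 2 members, Mfsd2a and Slco1a4, both lower, where 3.74% of all tested genes were called in either direction, 2.36% on the higher and 1.38% on the lower side. Values of the 2 groups did not overlap for 4 members, against 8.69% of all tested genes. Cdh5 and Tek were the 2 with higher values in every P213L sample (5.94% of all genes), and Mfsd2a and Slco1a4 the 2 with lower ones (2.75%). Without WT replicate 3, which stood apart, 3 members were positive and 7 negative with a median of -0.11 (all genes -0.001). The same 2 then had an unadjusted p under 0.05 (8.65% of all genes) and 4 did not overlap (14.2%), which leaving out a sample cannot undo, while 0 genes passed adjustment (0.0%). In cortex as a whole, fewer endothelial cells and less RNA per cell cannot be told apart.

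**Figure D1:**
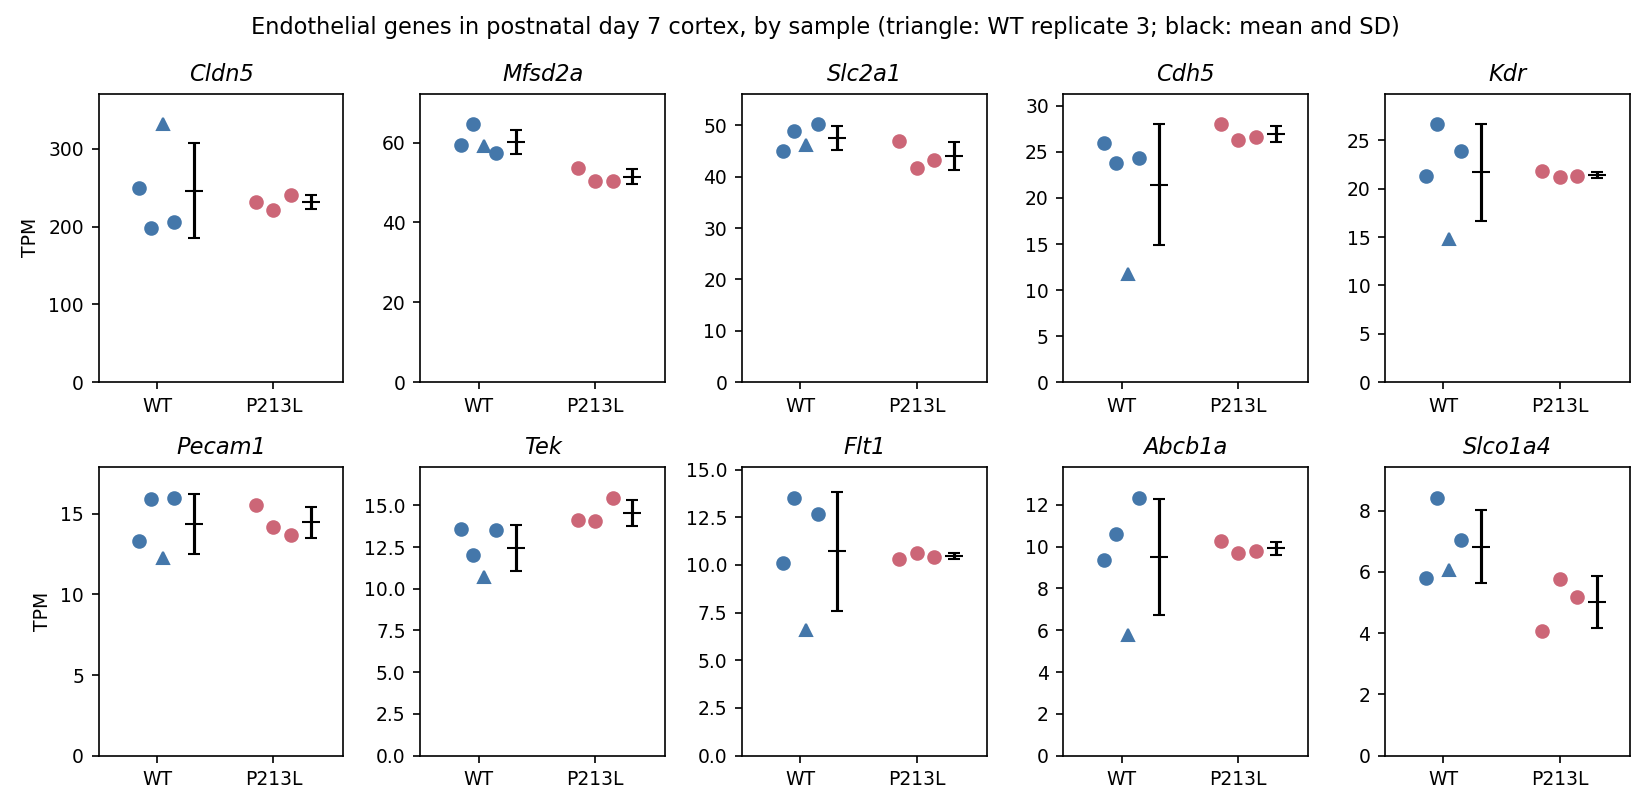
TPM of each of the 10 genes (vertical axes from 0) in 4 WT and 3 P213L samples, with the mean and SD in black and WT replicate 3 as a triangle. Every P213L point lay above every WT point for Cdh5 and Tek and below for Mfsd2a and Slco1a4. WT replicate 3 was highest for Cldn5 and lowest for Cdh5, Kdr, Pecam1, Tek, Flt1 and Abcb1a.

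Among the junction genes, Cldn5 was the most abundant member by far. It encodes claudin-5, the main claudin of brain endothelial tight junctions (mm10, chromosome 16, 18776847 to 18778262, plus strand, a single exon of 1416 bases). Its level was 250.02, 198.3, 331.6 and 206.2 TPM in WT replicates 1 to 4 and 232.2, 222.0 and 240.7 TPM in P213L replicates 1 to 3. The P213L values lay inside the WT range, and WT replicate 3 was highest. The means were 246.5 ± 61.1 TPM and 231.6 ± 9.35 TPM (SD, n = 4 and 3). The log2 fold change was -0.06 ± 0.18 (SE; 95% interval -0.48 to 0.36; limma adjusted p = 0.918), and it turned to 0.09 without WT replicate 3 (95% interval -0.12 to 0.31).

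Cdh5 encodes VE-cadherin, the adhesion protein of endothelial adherens junctions (chromosome 8, 104101625 to 104144511, plus strand). It stood at 25.9, 23.8, 11.7 and 24.3 TPM in the WT samples and at 28.0, 26.3 and 26.6 TPM in P213L. All 3 P213L values were above all 4 WT values, but WT replicate 1 (25.9) and P213L replicate 2 (26.3) were close, and WT replicate 3 lay far below all other samples. With a log2 fold change of 0.39 (SE 0.26), the adjusted p of limma was 0.827 and the two-sided exact permutation p 0.229. Without WT replicate 3 it was 0.13 ± 0.06 (limma adjusted p = 0.600).

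Pecam1 encodes an adhesion molecule found along the borders of all endothelial cells (chromosome 11, 106654217 to 106750628, minus strand). It was measured at 13.3, 15.9, 12.3 and 16.0 TPM in WT and 15.5, 14.2 and 13.7 TPM in P213L. The groups overlapped throughout, and the log2 fold change was 0.02 ± 0.13 (SE; 95% interval -0.29 to 0.33), or -0.06 without WT replicate 3.

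The VEGF receptors showed no difference larger than the spread between samples. Kdr is the main signalling receptor for VEGF-A (chromosome 5, 75932827 to 75978458, minus strand). Its WT samples held 21.3, 26.7, 14.8 and 23.9 TPM and its P213L samples 21.8, 21.3 and 21.3 TPM. Flt1, a receptor that binds VEGF-A tightly and signals weakly (chromosome 5, 147561604 to 147726011, minus strand), stood at 10.1, 13.5, 6.59 and 12.6 TPM in WT and 10.3, 10.6 and 10.4 TPM in P213L. For both genes the P213L samples lay close together at about the level of WT replicate 1, with WT replicates 2 and 4 above and WT replicate 3 below. The log2 fold change of Kdr was 0.02 ± 0.19 and that of Flt1 0.01 ± 0.23 (SE), with 95% intervals of -0.43 to 0.46 and -0.52 to 0.55. Without WT replicate 3 they came to -0.15 and -0.19, with intervals of -0.36 to 0.05 and -0.45 to 0.07. These intervals leave room for a change in either direction.

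Tek encodes Tie2, the angiopoietin receptor that keeps vessels quiescent (chromosome 4, 94739289 to 94874976, plus strand). Its level was 13.6, 12.02, 10.7 and 13.5 TPM in WT and 14.1, 14.05 and 15.4 TPM in P213L. Every P213L sample was above every WT sample, and the nearest were P213L replicate 2 and WT replicate 1. The means of 12.5 ± 1.37 and 14.5 ± 0.778 TPM (SD, n = 4 and 3) gave a log2 fold change of 0.22 (SE 0.12), with an adjusted p of 0.827 in limma and a two-sided exact permutation p of 0.0857. It was 0.15 ± 0.08 without WT replicate 3. The groups overlapped after quantile normalization and with a trend on gene length removed.

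Of the transport genes, Mfsd2a and Slco1a4 were lower in every P213L sample. Mfsd2a encodes a carrier that brings lysophospholipids with omega-3 fatty acids into the brain and holds vesicle traffic across the endothelium low (chromosome 4, 122946850 to 122961188, minus strand). The WT samples held 59.5, 64.5, 59.0 and 57.5 TPM and the P213L samples 53.7, 50.3 and 50.5 TPM. The groups did not overlap, and WT replicate 3 lay within the other WT samples for this gene. The means were 60.1 ± 3.05 and 51.5 ± 1.94 TPM (SD, n = 4 and 3), a change of -14.4%. The log2 fold change was -0.22 ± 0.09 (SE; 95% interval -0.44 to -0.004; limma unadjusted p = 0.0470, adjusted p = 0.827). The exact permutation p was 0.0286, the smallest that the 35 splits of 4 and 3 samples can give, for 1 of 10 genes tested this way. Without WT replicate 3 the log2 fold change was -0.23.

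Slco1a4 encodes an organic anion transporter (Oatp1a4) that moves bile acids, steroid conjugates and drugs across brain endothelium (chromosome 6, 141805440 to 141856199, minus strand). It was the least abundant member, at 5.80, 8.42, 6.05 and 7.03 TPM in WT and 4.08, 5.76 and 5.19 TPM in P213L. The groups did not overlap, but P213L replicate 2 (5.76) and WT replicate 1 (5.80) nearly met. A log2 fold change of -0.41 (SE 0.18) was fitted, with an unadjusted p of 0.0493 and an adjusted p of 0.827 in limma and a two-sided exact permutation p of 0.0571. It was -0.46 without WT replicate 3. The groups overlapped when mitochondrial rows and the ribosomal row Rn18s-rs5 were removed and the libraries rescaled. Slco1a4 belongs to a family of close relatives, and reads that they share could have been split between their rows, which was not tested.

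Slc2a1 encodes the glucose transporter GLUT1, which astrocytes also express (chromosome 4, 119108711 to 119137983, plus strand). Its levels were 45.0, 48.9, 46.2 and 50.2 TPM in WT and 47.0, 41.7 and 43.4 TPM in P213L. Only P213L replicate 1 lay within the WT range, and the other two were below it. The log2 fold change was -0.11 ± 0.10 (SE; 95% interval -0.34 to 0.12). Abcb1a encodes the efflux pump P-glycoprotein (chromosome 5, 8660077 to 8748575, plus strand) and stood at 9.33, 10.6, 5.77 and 12.3 TPM in WT and 10.3, 9.70 and 9.78 TPM in P213L. The P213L values lay inside the WT range, with a log2 fold change of 0.11 ± 0.23 (SE; 95% interval -0.44 to 0.65) that turned to -0.10 without WT replicate 3. Its paralog Abcb1b stood at only 1.01 ± 0.215 and 1.08 ± 0.221 TPM (SD, n = 4 and 3), and reads that fit both genes could have been split between them.

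**Figure D2:**
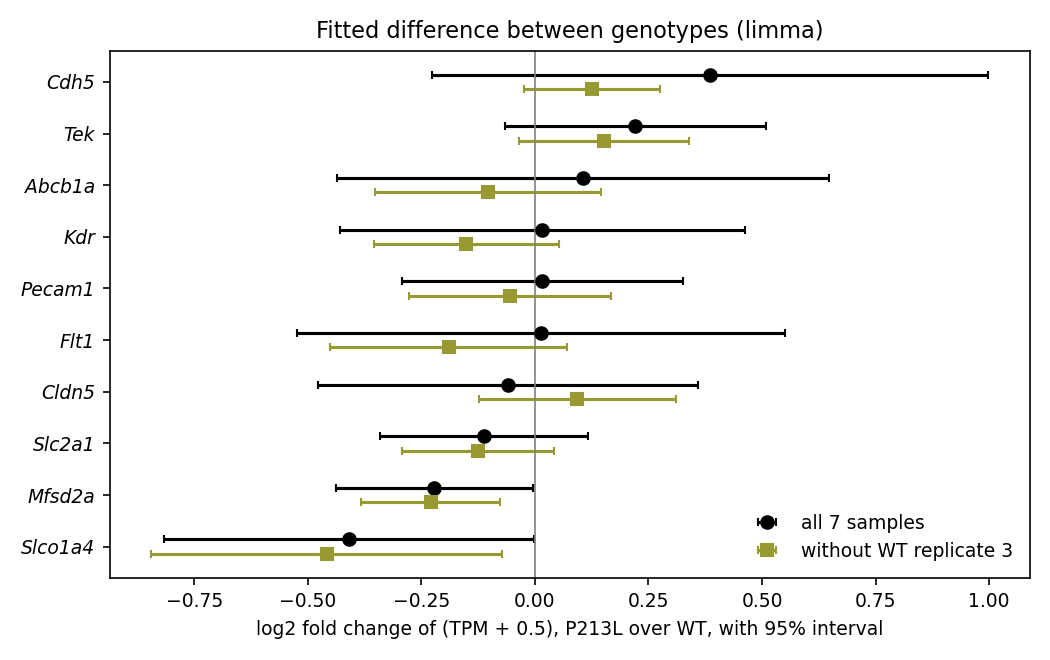
Fitted log2 fold change of TPM + 0.5 (P213L over WT, horizontal axis) for the 10 genes with its 95% interval in limma, from all 7 samples (black circles) and without WT replicate 3 (olive squares). The intervals of Mfsd2a and Slco1a4 end just below 0 with all samples, those of the other 8 genes cross 0, and without WT replicate 3 the points of Cldn5, Pecam1, Kdr, Flt1 and Abcb1a change sign.

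TPM is scaled by gene length, so levels can be compared roughly between genes. The means include WT replicate 3, whose values departed from the other WT samples by gene length. By the mean of all 7 samples the order was Cldn5 (240.1 TPM), Mfsd2a (56.4), Slc2a1 (46.0), Cdh5 (23.8), Kdr (21.6), Pecam1 (14.4), Tek (13.3), Flt1 (10.6), Abcb1a (9.68) and Slco1a4 (6.05). Cldn5 exceeded Mfsd2a by 4.25 times. Each gene exceeded the next in all 7 samples, except that Cdh5 exceeded Kdr, and Pecam1 exceeded Tek, in 5 of 7, and that Tek exceeded Flt1, and Abcb1a exceeded Slco1a4, in 6 of 7. Kdr exceeded Cdh5 in WT replicates 2 and 3 only, while in all 3 P213L samples Cdh5 (27.0 ± 0.897 TPM, SD) lay above Kdr (21.5 ± 0.294 TPM, SD). Tek exceeded Pecam1 in WT replicate 1 and P213L replicate 3, and those neighbours lay within their spread of each other.

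The spread among the P213L samples differed between the members. The CV over the 3 P213L samples was 1.37% for Kdr, 1.51% for Flt1 and 3.08% for Abcb1a, against 23.3, 29.0 and 29.2% over the 4 WT samples. For Kdr counting alone gives 1.49% (WT replicate 2) to 2.02% (WT replicate 3) over all 7 libraries, taking each estimated unit as 1 count. The P213L libraries lay between these ends. For Slco1a4 the CV was 17.1% in P213L and 17.4% in WT, well above counting error in both. The CV was lower in P213L for 9 of the 10 genes, Slc2a1 being the exception, a share near the 85.9% of all tested genes for which the same held. Without WT replicate 3 the WT values came to 11.1, 14.7 and 13.96%, and again 9 of 10 genes were lower in P213L, against 61.8% of all genes.

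WT replicate 3 departed from the other WT samples by amounts that differed with gene length, though not for every member. On the log2 scale it stood 0.61 above the mean of the other 3 for Cldn5, the shortest member (1416 bases), and close to them for Mfsd2a (-0.03; 2250 bases) and Slc2a1 (-0.06; 3506 bases). It stood lower for the longer genes Kdr (-0.67; 9030 bases) and Flt1 (-0.82; 13504 bases). Pecam1 (-0.28; 6228 bases) and Slco1a4 (-0.20; 6414 bases) stood above the median for genes of their length, which was -0.51. Over all tested genes the median departure was -0.23 for those of 47 to 850 bases, 0.27 for those of 851 to 1705 bases and -0.81 for those of 9401 bases or more. WT replicate 3 was the lowest of the 7 samples for 6 members, as for 55.2% of all tested genes, and the highest for 1, Cldn5 (21.6%). Cdh5 (-1.04; 4203 bases) and Abcb1a (-0.84; 5480 bases) fell below the lower quartile for genes of their length. With a trend on length removed from every library, the log2 fold change of Cdh5 was 0.29, that of Mfsd2a came to -0.24 and Slco1a4 to -0.53.

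**Figure D3:**
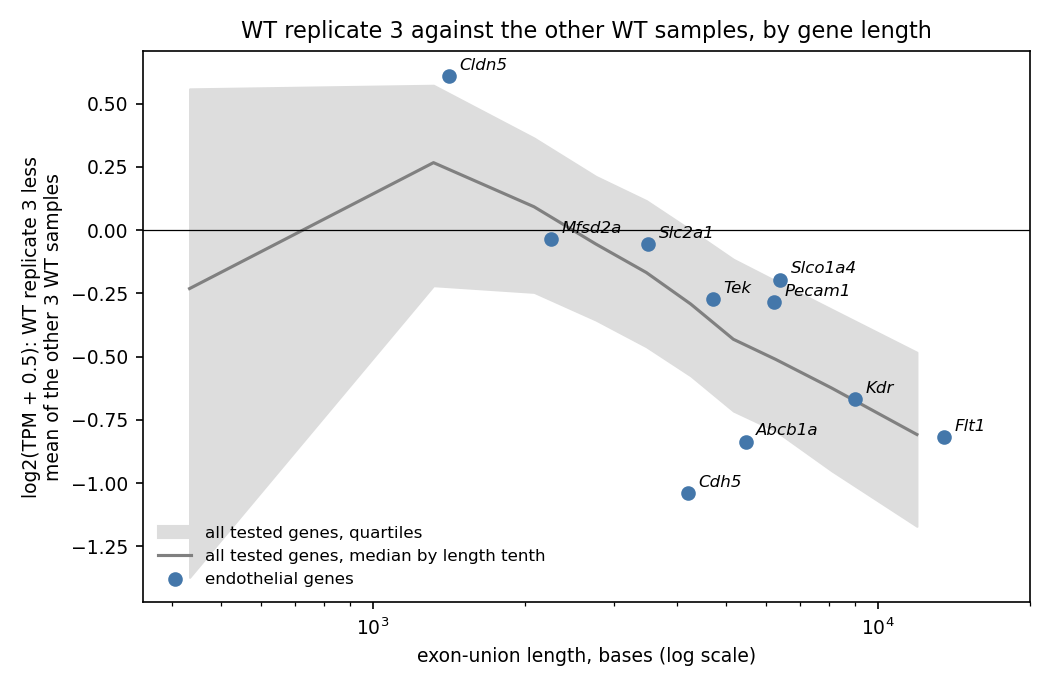
Difference in log2(TPM + 0.5) between WT replicate 3 and the mean of the other 3 WT samples (vertical axis) against exon-union length in bases (log axis), for the 10 genes and, in grey, the median and quartiles of all tested genes in 10 bins of length. Cldn5, at 1416 bases, lay 0.61 above the other WT samples and Flt1, at 13504 bases, 0.82 below, while Cdh5 and Abcb1a lay under the grey band.

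As a rough scale for endothelial RNA, each member was also divided by a pan-endothelial gene of the same library. Pecam1 and Esam, an endothelial adhesion molecule whose TPM was 30.9 ± 1.03 (SD, n = 4) across WT and 29.5 to 31.96 across P213L, were chosen for this after their values were seen, and no test was run. Relative to Pecam1, 1 of 9 genes had groups that did not overlap. This was Slco1a4, at 0.435 to 0.529 in WT and 0.262 to 0.406 in P213L. Relative to Esam, which varied little between libraries, 3 of 10 did not overlap, and all of these were apart in TPM as well. Cdh5 stood at 0.371 to 0.828 in WT and 0.833 to 0.890 in P213L, Tek at 0.339 to 0.433 and 0.449 to 0.483, and Mfsd2a at 1.83 to 2.20 and 1.58 to 1.70. No member was apart with both divisors. The share of all tested genes apart after such a division was not computed, so these counts have no background. In WT replicate 3 Pecam1 was at its lowest (12.3 TPM) while Esam stood at 31.6 TPM, so the divisors did not track a common amount there.

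**Figure D4:**
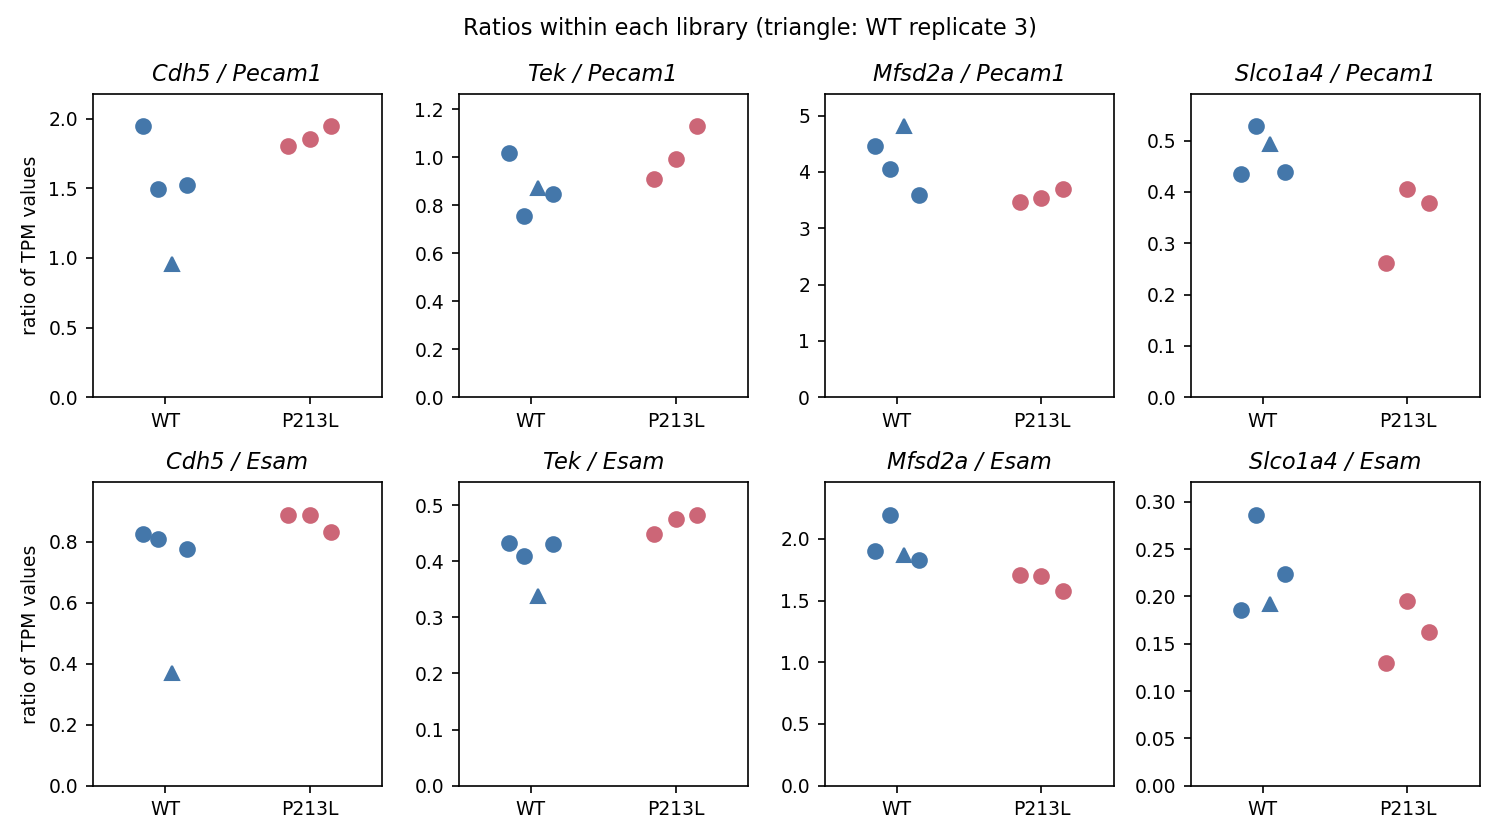
TPM of Cdh5, Tek, Mfsd2a and Slco1a4 divided by that of Pecam1 (upper row) or Esam (lower row) in the same library, for 4 WT and 3 P213L samples, with WT replicate 3 as a triangle. Relative to Pecam1 the groups were apart for Slco1a4, and relative to Esam for Cdh5, Tek and Mfsd2a.

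Other genes of the barrier and its vessels were described from 9 lists with 119 genes, of which 116 were tested. In limma 0 passed the adjusted threshold. At an unadjusted p under 0.05 there were 2 higher and 1 lower (2.59%, beside 3.74% of all tested genes), and 8 had groups that did not overlap (6.90%, beside 8.69%). Their median log2 fold change was 0.08, beside 0.07 over all genes. As a whole these genes did not stand out from the table.

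Of the 15 other junction genes, 10 were positive and 5 negative, and without WT replicate 3 there were 4 positive and 11 negative. Ocln, which encodes the tight junction protein occludin, had a log2 fold change of 0.03 ± 0.14 and Tjp1, the scaffold ZO-1 beneath the junction, of 0.19 ± 0.33 (SE). Cgn, which encodes the junction adaptor cingulin, had the smallest p of the list, with means of 10.1 ± 2.89 TPM for WT and 15.6 ± 0.947 TPM for P213L (SD, n = 4 and 3; limma unadjusted p = 0.0218, adjusted p = 0.827). Epithelia also express Cgn. Its groups did not overlap, and its log2 fold change was 0.66 ± 0.23 (SE), or 0.45 without WT replicate 3.

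Of 18 other transport genes, 11 were positive and 7 negative, and 14 were negative without WT replicate 3. Slc7a5, the large neutral amino acid carrier, stood at 186.2 ± 47.3 and 187.7 ± 8.93 TPM, and Slc16a1, the lactate carrier MCT1, at 92.1 ± 12.3 and 80.4 ± 5.70 TPM (SD, n = 4 and 3). Abcg2, an efflux pump that works beside P-glycoprotein, stood at 9.33 ± 0.964 and 7.73 ± 0.410 TPM, with a log2 fold change of -0.25 ± 0.13 (SE). Slc38a5, a glutamine carrier, had the smallest p of the list. It was measured at 27.1, 21.0, 20.6 and 24.1 TPM in WT and 30.5, 29.4 and 32.1 TPM in P213L, so the groups did not overlap (log2 fold change 0.40 ± 0.13, SE; limma unadjusted p = 0.0136, adjusted p = 0.827).

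Of 16 other endothelial receptors, 9 were positive and 7 negative, or 6 and 10 without WT replicate 3. Tie1, the partner of Tie2, had a log2 fold change of 0.06 ± 0.14 and Nrp1, a co-receptor for VEGF-A, of 0.33 ± 0.28 (SE). Adgrl4, an adhesion G protein-coupled receptor of endothelium, stood at 10.6, 15.3, 12.1 and 14.6 TPM in WT and 8.77, 10.4 and 9.09 TPM in P213L. Its groups did not overlap, with a log2 fold change of -0.45 ± 0.16 (SE; limma unadjusted p = 0.0209, adjusted p = 0.827). Among 11 ligands, 5 were positive and 6 negative. Vegfa had 0.18 ± 0.15, Angpt1, the ligand that activates Tie2, -0.21 ± 0.17, and Angpt2, which can oppose it, -0.26 ± 0.19 (SE).

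The Wnt pathway that induces the barrier gave 15 positive and 2 negative members of 17, with a median of 0.17 that fell to 0.04 without WT replicate 3. None of the 17 had an unadjusted p under 0.05. The ligands Wnt7a and Wnt7b had log2 fold changes of 0.35 ± 0.16 and 0.20 ± 0.17, the receptor Fzd4 0.17 ± 0.24 and its co-activator Adgra2 0.35 ± 0.25 (SE). The nuclear partner of β-catenin Lef1 had -0.04 ± 0.17 and the barrier transcription factor Foxf2 0.08 ± 0.12. Among 12 endothelial transcription factors, 9 were positive, with Erg at -0.05 ± 0.18, Sox17 at 0.08 ± 0.14 and Klf4, which had the smallest p, at 0.45 ± 0.22 (SE). All 10 basement membrane genes were positive with a median of 0.31, which came to 0.01 without WT replicate 3, where 5 were positive and 5 negative. Lamb1, a laminin chain, had the smallest p of these (0.23 ± 0.17, SE).

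Genes of leaky endothelium and of vesicle traffic did not pass either. Plvap, which marks fenestrated and immature vessels, averaged 12.8 ± 0.225 TPM over the WT and 12.2 ± 1.33 TPM over the P213L samples, and Cav1, the coat protein of caveolae, 21.9 ± 2.72 and 23.7 ± 1.72 TPM (SD, n = 4 and 3). Cavin2, which also shapes caveolae, had the smallest p of the list and a log2 fold change of -0.33 ± 0.18 (SE). Of 8 tested genes 2 were positive and 6 negative, and Selp and Sele were under the minimum. Among 9 tested arterial and venous genes 6 were positive, and Efnb2, a marker of arteries that neurons also express, had the smallest p (0.27 ± 0.14, SE).

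**Figure D5:**
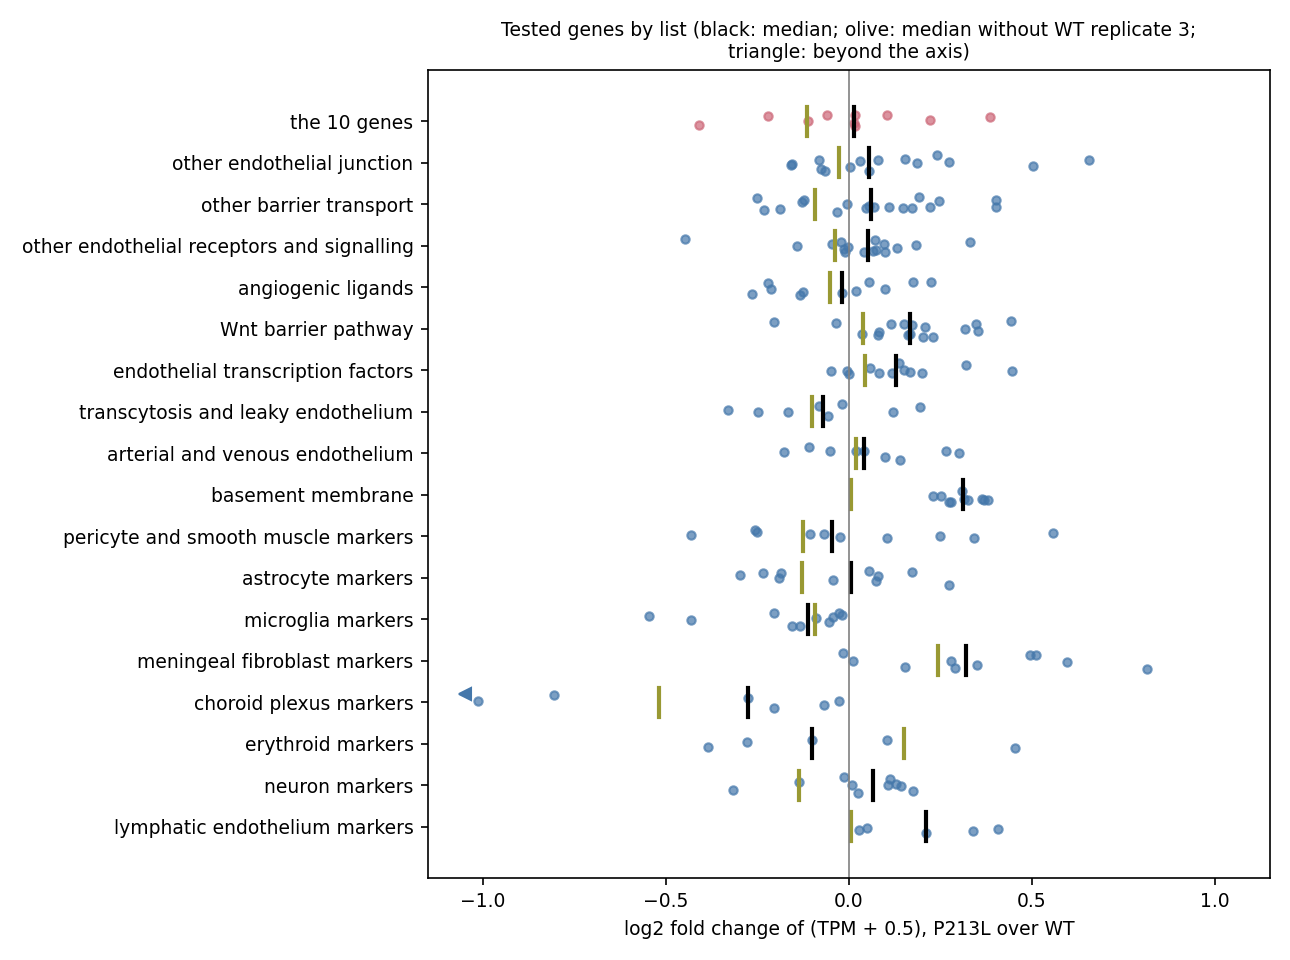
Log2 fold change of TPM + 0.5 (P213L over WT, horizontal axis) for every tested gene of the 10 followed here and of the 17 other lists, 1 point a gene, with the list median in black and the median without WT replicate 3 in olive; 1 choroid plexus gene lies beyond the left edge. The basement membrane median moved from 0.31 to 0.01 and the Wnt median from 0.17 to 0.04 when WT replicate 3 was left out.

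Markers of neighbouring cells were read beside these results. Pericyte and smooth muscle markers, whose cells sheathe the vessels, had 4 positive and 6 negative of 10 tested, and their 12 genes summed to 306.8 to 359.6 TPM over WT against 327.1 to 344.0 over P213L. Pdgfrb, the receptor that recruits pericytes, had a log2 fold change of 0.25 ± 0.25 and Rgs5 of -0.11 ± 0.16 (SE), while Anpep had the smallest p at 0.56 ± 0.18. Tagln and Cnn1 were under the minimum. Meningeal fibroblast markers had 9 positive of 10 with a median of 0.32, and 10 of 10 with a median of 0.24 without WT replicate 3. They summed to 923.4 to 1159 TPM over WT against 938.6 to 1204 over P213L, a sum made up mostly by Ptgds (744.8 to 1044 TPM over the 7 samples; log2 fold change 0.01). Foxc1 had the smallest p, at 0.35 ± 0.12 (SE). The part of pericyte and meningeal cells in the values of Cdh5, Tek and the other members was not tested.

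Choroid plexus markers summed to 1262 TPM in WT replicate 2 and to 11.95 to 16.2 TPM in the other 6 libraries. All 7 tested were negative, with Kcne2 at -1.01 ± 0.62 (SE). Their signs without WT replicate 2 are not given here. Each of the 7 had its highest value in WT replicate 2, so a general decrease cannot be read from these signs. Slco1a4 and Mfsd2a had their highest value in that library, as did Kdr and Flt1. Without WT replicate 2 the log2 fold changes were -0.31 for Slco1a4 and -0.19 for Mfsd2a. Erythroid markers summed to 903.5 TPM in WT replicate 3, 415.3 to 492.3 TPM in the other WT samples and 461.0 to 600.9 TPM in P213L, with 2 of 5 tested positive, or 3 of 5 without WT replicate 3, and Alas2 at 0.45 ± 0.16 (SE). Astrocyte markers had 5 of 10 positive, and 2 of 10 without WT replicate 3, with Gjb6 at -0.30 ± 0.14. They summed to 972.2 TPM in WT replicate 3, to 1263 to 1447 TPM in the other WT samples and to 1172 to 1229 TPM in P213L. Microglial markers had 0 of 10 positive, or 2 of 10 without WT replicate 3, and summed to 364.8 to 437.7 TPM and 345.4 to 361.4 TPM, with Siglech at -0.43 ± 0.14. Of the neuronal markers 7 of 10 were positive, and 2 of 10 without WT replicate 3, with Snap25 at -0.32 ± 0.11 (SE). Lymphatic markers, a list in which Reln is also made by cortical neurons, had 5 of 5 positive, and 3 of 5 without WT replicate 3 (median 0.21 and 0.006), with Ccl21a at 0.41 ± 0.25 and sums of 42.4 to 73.6 TPM over WT against 68.1 to 71.9 over P213L. No marker named in this paragraph passed the adjusted threshold in limma.

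The genes whose level was most like the mean of the 10 members over the 7 samples were looked up among 12347 genes whose mean was 5 TPM or more. The nearest by Pearson r on the log2 scale were Emc8, Pdgfra, Tns3, Ttpal, Abcc9, Dennd4c, Hivep2, 2510009E07Rik, Fam205c and Cx3cr1, with r of 0.992 to 0.997. Abcc9 is a pericyte marker and Cx3cr1 a microglial one. The member mean was low in WT replicate 3 (4.27, against 4.53 to 4.68 in the other 6). Without that sample the r of these 10 genes was 0.971 to 0.990 over 6 samples. The 10 were picked on samples that include these 6, so this range is no separate check. How many of the 12347 genes reach such an r over 6 samples was not computed. None of the other endothelial genes listed above was among the 10 nearest.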

How the data were processed

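Fresh cortex was sequenced as stranded mRNA libraries, per the labels' protocols. The submitters' processing notes name HISAT2, HTSeq and mm10, with versions and annotation not given in the sources used here. What the authors deposited, per the file headers, are TPM values, which sum to 1000000 in each sample. No column belonged to another sample (0), and 0 pairs of columns were identical. TPM keeps no depth. Values multiplied by GENCODE vM21 (mm10) exon-union lengths were divided by the most frequent low value of each library, taken as 1 counted unit. All 70 member values lay within 0.001 of a multiple of 0.5 units. No count test was run.

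Groups came from the titles. Rows averaging at least 1 TPM were fitted as log2(TPM + 0.5) in limma 3.58.1 (R 4.3.3; mean-variance trend, two-sided, Benjamini-Hochberg over 17582 rows, threshold 0.05), a scale that understates changes of low genes. Single genes were also compared by exact permutation over 35 splits. The fit was tested on simulated data. Members and lists were chosen with earlier results of these data known. Named genes were the members, a set chosen by role, the smallest p of each list and the 10 nearest genes. Alternatives were other pseudocounts, filters, scalings, weights, a replicate block and each sample left out; removal of a length trend was chosen after seeing the data. Promoters are from RefSeq GRCm38.p6. Of 196 list genes other than the members 1, Ahsp, had no row under that symbol.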

Additional observations from a re-analysis of the deposited data

Results flagged for a closer look

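In 28 measures, the 10 genes and the summed level of each list, the WT group was searched for a sample lying far from its companions. By chance alone about 1 in 20 groups of 4 would show one. The search found 4, with 3 of them in WT replicate 3. Cdh5 stood at 3.61 on the log2(TPM + 0.5) scale in WT replicate 3, against 4.601 to 4.72 in the other WT samples. The basement membrane genes, the sheet of laminin, nidogen and collagen IV on which endothelial cells sit, summed to 152.7 TPM in WT replicate 3, against 334.7 to 347.2 TPM. The erythroid markers summed to 903.5 TPM in WT replicate 3, against 415.3 to 492.3 TPM. The choroid plexus markers summed to 1262 TPM in WT replicate 2, against 11.95 to 15.8 TPM. Without WT replicate 3 the log2 fold change of Cdh5 was 0.13, against 0.39 with all samples.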

How the results depend on the processing

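Cdh5, Tek, Mfsd2a, Slco1a4 and Slc2a1 kept their direction under all 18 alternatives. For Cdh5, Tek, Mfsd2a and Slco1a4 most of these could not have reversed it, because their groups did not overlap. Only rescaling the libraries or removing the length trend could have done so. For all members, Slc2a1 included, the other filters and the fit without a mean-variance trend left the fold change as it was (-0.11 for Slc2a1). Those alternatives could not change a direction. The replicate block gave the members the same fold changes as leaving out WT replicate 4 (-0.085 for Slc2a1 in both). Cdh5 ranged from 0.13 to 0.50, Tek from 0.12 to 0.26, Mfsd2a from -0.31 to -0.19, Slco1a4 from -0.53 to -0.28 and Slc2a1 from -0.20 to -0.07 (log2). With all 7 samples, 0 of 10 members passed adjustment in limma, and none did under any alternative except sample weights. Those weights ran from 0.0431 (WT replicate 3) to 5.24 (WT replicate 4) and 6.90 (P213L replicate 3), so 2 libraries carried most of the comparison. With weights 3981 of the 17582 tested genes passed adjustment, 6 of the 10 members among them (Cldn5, Flt1, Slc2a1, Mfsd2a, Slco1a4 and Abcb1a). An unadjusted p under 0.05 was found for 6969 of the 17582, all 10 members included. The members' median was -0.18, beside -0.0007 over all tested genes. Cldn5 then came to 0.19, Pecam1 to -0.17, Flt1 to -0.26, Kdr to -0.17 and Abcb1a to -0.25.

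Under median-of-ratios scaling Pecam1, Flt1 and Kdr came to -0.066, -0.065 and -0.066, under quantile normalization to -0.089, -0.092 and -0.092, and with the length trend removed to -0.11, -0.16 and -0.13, with Abcb1a at -0.0078. The share of genes on the higher side at an unadjusted p under 0.05 was 63.2%, and 51.9, 49.4 and 51.1% under these. Without a filter 1836 genes had an unadjusted p under 0.05 and 2563 had groups apart, against 657 and 1527. With a minimum of 5 TPM 361 had such a p. Leaving out 1 sample gave 269 to 1571 genes with such a p and 2029 to 4385 apart. The p count was 1571 with WT replicate 1 left out, 1532 with WT replicate 3 out, and 269, 391 and 315 with P213L replicates 1, 2 or 3 out. No member had such a p with WT replicate 2 or 4 or P213L replicate 1 or 3 left out. In these fits Cldn5 ranged from -0.15 to 0.093, Pecam1 from -0.055 to 0.068, Flt1 from -0.19 to 0.14, Kdr from -0.15 to 0.12 and Abcb1a from -0.10 to 0.24. The cause was not tested.

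Deviations of same-numbered samples correlated at 0.13, 0.17 and -0.10, against -0.24 to 0.12 for differently numbered ones. Whether the replicate numbers pair the samples cannot be told from these values. With the replicate block 500 genes had an unadjusted p under 0.05, none of them a member, and 0 passed adjustment. Replicate number 4 exists only in WT, so under the block WT replicate 4 added nothing to the comparison of genotypes. With the block the members' median was 0.07, as it was with WT replicate 4 left out.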
